A study of Mus musculus with 19 samples.

Results

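Wild type (WT) cDC1 and cDC2, the 2 subsets of conventional dendritic cells, were compared gene by gene in bulk RNA-seq libraries of the mouse spleen. The comparison rests on 7 libraries, 3 of cDC1 and 4 of cDC2, of the 19 in the series, and takes every library whose genotype label is WT. The counts of both subsets were joined by gene symbol, which gave 24421 symbols present in both tables. The cells came from C57BL6 mice and were isolated by flow cytometry, with 5000 to 50000 cells per library. Sample names split the WT libraries further. Replicates 1 and 2 of each subset are named for floxed alleles of both genes under study (XBP1fl-fl-IRE1fl-fl), and replicate 3 of cDC1 and replicates 3 and 4 of cDC2 are named XBP1-IRE1-WT. The names are called fl-fl and WT-named below, and nothing in the labels says that they are batches. No source used here gives age, sex or a Cre driver. Whether each replicate is a mouse of its own is not stated either. The p-values therefore weigh differences against the spread of these libraries, part of which may be technical. A further 6 libraries of mice labelled Xbp1 KO and 6 of mice labelled Xbp1-Ire1 KO, 3 of each subset in both, were used to see whether differences recurred.

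Conventional dendritic cells take up antigen, carry it to T cells and set the terms of the T cell response. The cDC1 subset depends on the transcription factors IRF8 and BATF3, takes up dead cells, and presents their antigens on MHC class I to CD8 T cells, a route called cross-presentation. The cDC2 subset depends on IRF4, in the spleen also on Notch2 signals, and presents antigen on MHC class II mainly to CD4 T cells. IRE1, encoded by Ern1, is a sensor of unfolded proteins in the endoplasmic reticulum (ER). When active, its RNase cuts an intron from Xbp1 mRNA, the spliced mRNA yields an active transcription factor, and XBP1 drives genes for ER chaperones and secretion.

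Total counts were 11536884 to 13727184 per library. Levels are given as CPM, counts per 1000000 of the library total after TMM scaling. Log2 fold changes are cDC1 over cDC2 with their standard errors, so a negative value is higher in cDC2, and adjusted p-values are Benjamini-Hochberg values of edgeR's quasi-likelihood F test over the 11441 genes tested. Libraries are listed in the order of their replicate numbers throughout. In bulk libraries, fewer cells with a transcript and less of it per cell cannot be told apart. The WT-named libraries stood apart from the fl-fl ones in genes of activation: Nr4a1, an immediate early gene of an orphan nuclear receptor, was measured at 720.4, 714 and 2215 CPM in cDC1 and 775, 833, 4374 and 3821 CPM in cDC2. In both subsets the WT-named libraries held the highest values of this gene. Its log2 fold change of −1.01 ± 0.65 did not pass the test (adjusted p = 0.257), although it passed with the replicate block. It was −0.15 within fl-fl libraries and −0.90 within WT-named ones, of which cDC1 has 1, so that values within that name rest on a single cDC1 library.

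The 6 markers that define the subsets followed the labels. Xcr1, the receptor for the chemokine XCL1 (chr9:123852315-123862029, GRCm38), was measured at 906, 1049 and 1048 CPM in cDC1 and 18.5, 6.64, 6.997 and 6.21 CPM in cDC2. For Clec9a, a receptor for the actin of dead cells (chr6:129408862-129424763), the values were 235, 271 and 283 CPM in cDC1 and 16.7, 9.82, 12.1 and 6.77 CPM in cDC2. Cd8a, the alpha chain of CD8 (chr6:71373427-71379173), gave 1017, 983 and 719.9 CPM in cDC1 and 17.99, 9.75, 4.39 and 2.07 CPM in cDC2. All 3 were high in every cDC1 library with no overlap, and replicate 1 held the highest value among cDC2 libraries in each case. Sirpa, the inhibitory receptor for CD47 (chr2:129592835-129632228), stood at 8.48, 13.7 and 27.5 CPM in cDC1 and 1232, 1608, 1437 and 1372 CPM in cDC2. Cd4 (chr6:124864692-124888221) was found at 11.5, 12.4 and 9.19 CPM in cDC1 and 245, 259, 303 and 229.7 CPM in cDC2. The lectin gene Clec4a4, which encodes the antigen of the antibody 33D1 (chr6:122990367-123024105), had 0.0848, 0.391 and 0.163 CPM in cDC1 and 131, 109, 126 and 115 CPM in cDC2. These were high in all cDC2 libraries, again without overlap. The log2 fold changes were 6.71 ± 0.39 (adjusted p = 6.40e-07) for Xcr1, 4.53 ± 0.26 for Clec9a, 6.73 ± 0.59 for Cd8a, −6.41 ± 0.40 for Sirpa, −4.55 ± 0.18 for Cd4 and −9.05 ± 0.29 (adjusted p = 2.63e-08) for Clec4a4, which is 531-fold. Because Clec4a4 was near 0 in cDC1, the size of that fold rests on few counts there.

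**Figure D1:**
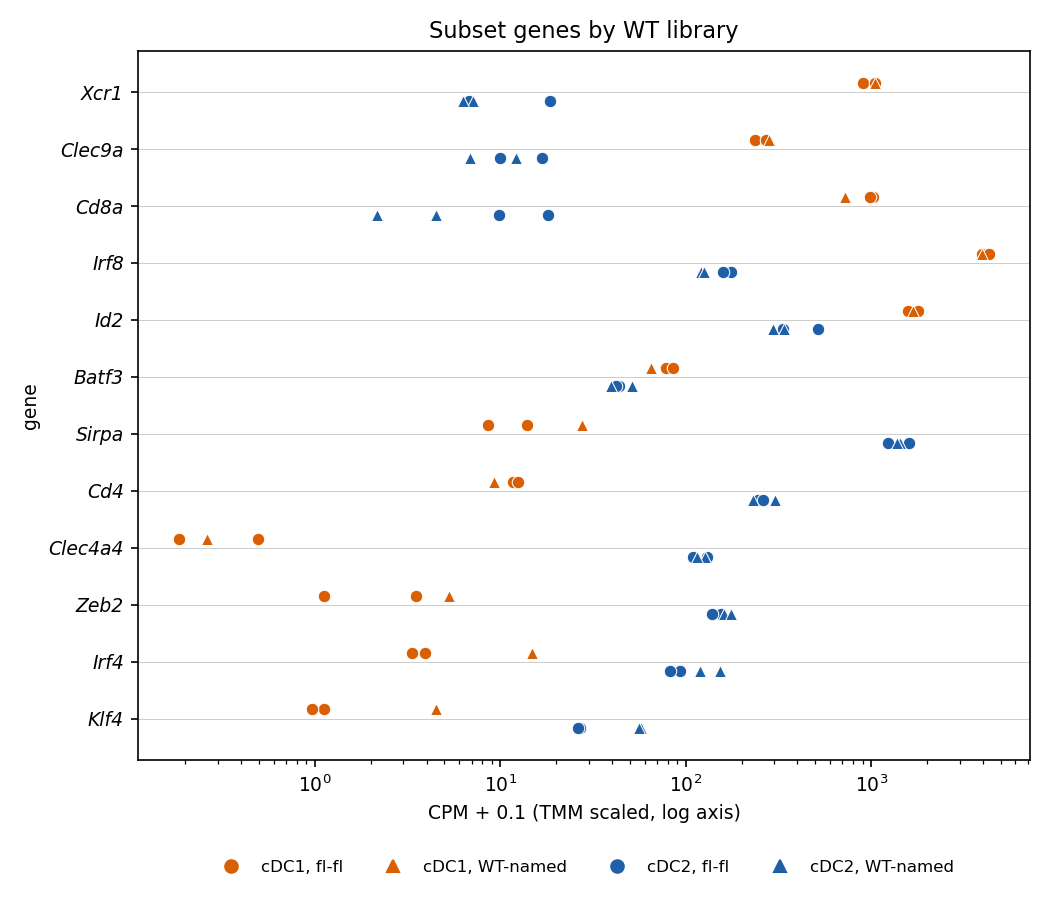
Level of 12 subset genes in each WT library (CPM plus 0.1, log axis); each point is a library, cDC1 in orange and cDC2 in blue, circles for fl-fl and triangles for WT-named libraries. The markers of cDC1 lie to the right for all 3 cDC1 libraries and those of cDC2 for all 4 cDC2 libraries, with no overlap in any of the 12 genes.

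Transcripts of other cell types were looked for in the same libraries. Errors beside means are SDs over 3 cDC1 and 4 cDC2 libraries. Defining T cell genes were near 0: Cd3e was measured at 1.38 ± 0.218 CPM in cDC1 and 0.949 ± 0.995 CPM in cDC2, and Cd3d, Cd3g, Cd28 and Bcl11b did not reach the count filter. Among B cell genes Pax5 and Ebf1 were below the filter. Of the 7 tested members of that list 3 were higher in cDC2 and 1 in cDC1, and the list summed to 63.6 to 89.7 CPM in the cDC1 libraries and 92.0 to 136 CPM in the cDC2 libraries. The monocyte list summed to 558 to 708 CPM in the cDC1 libraries and 1979 to 2584 CPM in the cDC2 libraries, with 8 of its 12 tested members higher in cDC2 and 1, Treml4, in cDC1. The largest member was Lyz2, encoding lysozyme, in cDC2 and Treml4 in cDC1: Lyz2 was measured at 228 ± 47.9 CPM in cDC1 and 1304 ± 243 CPM in cDC2 and Treml4 at 325 ± 17.3 CPM in cDC1 and 71.5 ± 13.8 CPM in cDC2. Ly6c2, a surface antigen gene of classical monocytes, had 6.25 ± 2.75 CPM in cDC1 and 5.21 ± 2.74 CPM in cDC2 and did not pass the test. The red pulp macrophage list summed to 291 to 446 and 544 to 1025 CPM, with 5 of 12 members higher in cDC2, among them Adgre1 (F4/80) at 12.1 ± 2.96 CPM in cDC1 and 298 ± 33.1 CPM in cDC2. Spic, the lineage factor of those macrophages, stood at 9.73 ± 6.73 CPM in cDC1 and 20.05 ± 9.54 CPM in cDC2 and did not pass, except without cDC1 replicate 3 (−1.74, adjusted p = 0.00732). The sums of the NK cell, neutrophil, plasma cell and erythroid lists reached at most 219 CPM in any library. The plasmacytoid dendritic cell list summed to 961 to 1896 CPM in cDC1 and 244 to 424 CPM in cDC2, most of it Mpeg1 in cDC1. Its 10 tested members split, with 3 higher in cDC1 and 3 in cDC2. Siglech, which defines those cells, was measured at 1.55 ± 1.83 CPM in cDC1 and 1.75 ± 0.701 CPM in cDC2. The part of these cells in the results below was not tested. Sex-linked genes were checked as well, as the labels give no sex. Xist, a transcript of female cells, did not reach the count filter. Together with 4 tested genes of the Y chromosome it summed to 144 to 223 CPM in the cDC1 libraries and 200 to 305 CPM in the cDC2 libraries.

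Of the 11441 genes tested, 4195 passed an adjusted p of 0.05, which is 36.7%. Of these, 2092 were higher in cDC1 (18.3% of genes tested) and 2103 in cDC2 (18.4%). At least 2-fold differences were called for 987 genes in cDC1 (8.63%) and 1331 in cDC2 (11.6%). Larger differences lay more often on the cDC2 side: 117 called genes were at least 16-fold higher in cDC1 and 269 in cDC2. The values of the 2 subsets did not overlap for 4907 genes, which is 42.9%. The balance depended on scaling. With library totals in place of TMM, 1511 and 2810 genes were called, so that 35.0% of calls in place of 49.9% were higher in cDC1, and the median difference moved by −0.178 on the log2 scale. No gene called under both scalings changed direction. Lists of genes below are read against these shares and against the median log2 fold change of all tested genes, −0.03.

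**Figure D2:**
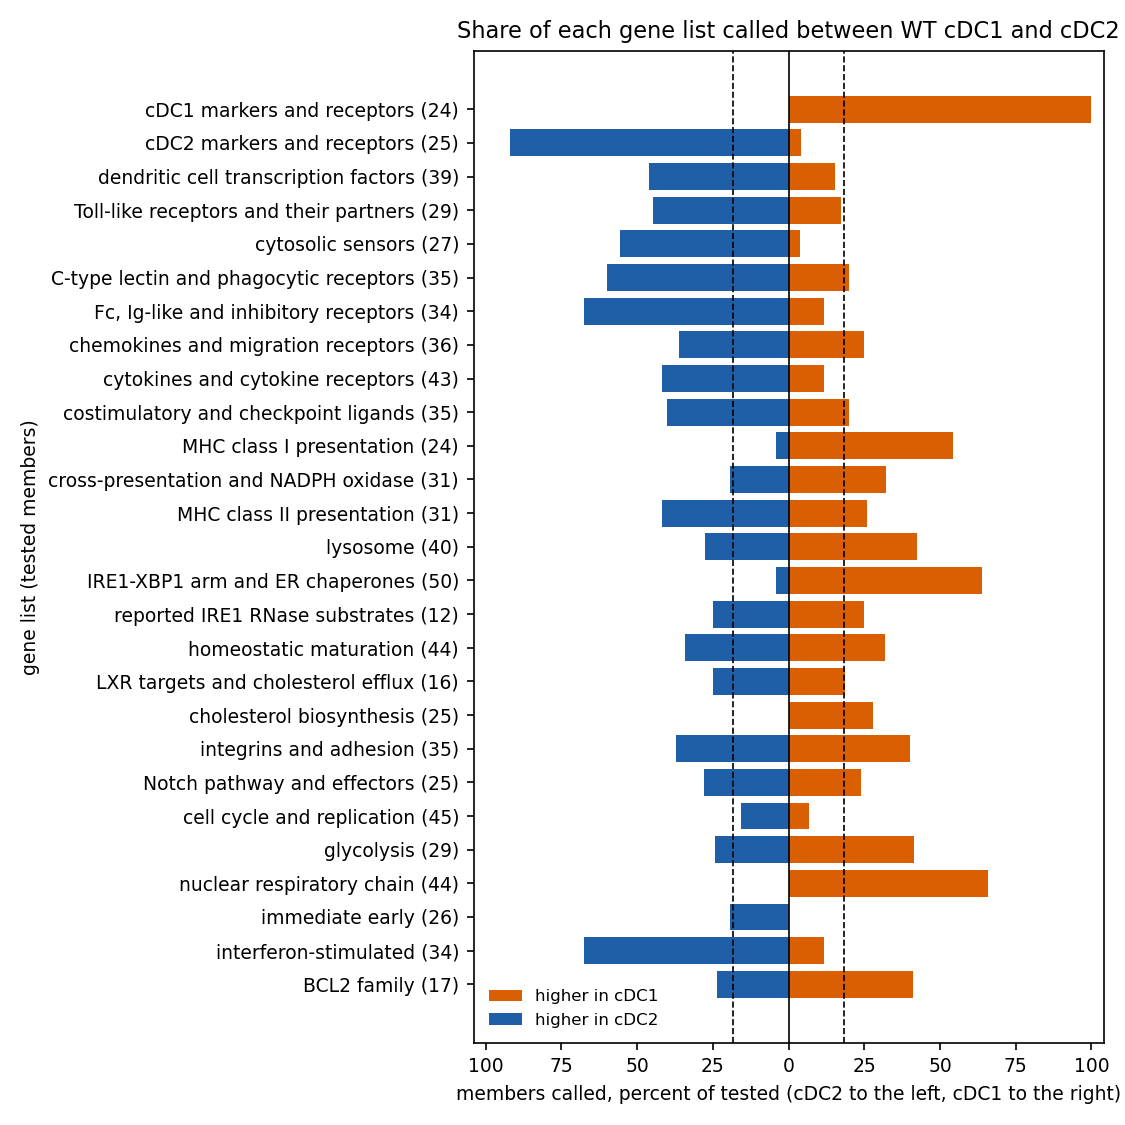
Share of tested members of each gene list called higher in cDC1 (orange, to the right) or in cDC2 (blue, to the left), in percent, with the number of tested members beside each name. Dashed lines mark the shares over all tested genes, 18.3% and 18.4%; with library totals in place of TMM the lists of integrins and of the respiratory chain lose calls in cDC1 (9 in place of 14, and 19 in place of 29).

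Among genes of at least moderate level, the largest differences on the cDC1 side were in P3h2, Gpr33, Clec4b2, Dkk3, Fzd1, Cd207 and Itgae. Genes here and in the next paragraph were picked among called genes for large fold changes and for groups that do not overlap. Their separation and small p-values are therefore part of the choice. P3h2, which encodes a collagen prolyl hydroxylase, was measured at 117, 132 and 111 CPM in cDC1 and 0.822, 0, 0.570 and 0.0797 CPM in cDC2. Gpr33, an orphan receptor related to chemoattractant receptors, had 36.4, 38.0 and 25.1 CPM in cDC1 and 0.329, 0, 0.0814 and 0.0797 CPM in cDC2. The log2 fold changes of these 2 genes were 8.37 ± 0.48 (adjusted p = 5.70e-07) and 8.02 ± 0.48 (adjusted p = 7.41e-07). Fzd1, a frizzled receptor for Wnt ligands, stood at 218, 286 and 158 CPM in cDC1 and 3.45, 0.707, 1.06 and 0.0797 CPM in cDC2. Dkk3, of the dickkopf family, had a log2 fold change of 7.99 ± 0.60. Cd207, the lectin langerin, gave 49.0 ± 10.9 CPM in cDC1 and 0.299 ± 0.468 CPM in cDC2, and Itgae, the integrin chain CD103, gave 136 ± 29.5 CPM in cDC1 and 0.846 ± 0.628 CPM in cDC2. Others in this group were Homer2, a scaffold protein (7.27 ± 0.54), Mab21l3 (7.04 ± 0.50), Gcsam (6.83 ± 0.52), Ttc39a (6.61 ± 0.55), Gramd2 (6.34 ± 0.66) and Igf2r, the receptor that sorts enzymes tagged with mannose 6-phosphate to lysosomes (6.57 ± 0.45).

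The genes with the largest differences toward cDC2 were Dscam, Clec4a4, Sirpb1a, Scn3a, Cd101 and Ccr6. Dscam, known as an adhesion molecule of neurons (chr16:96590840-97170752), was measured at 0, 0 and 0.163 CPM in cDC1 and 84.2, 73.2, 141 and 121 CPM in cDC2. Its log2 fold change was −10.67 ± 0.54 (adjusted p = 2.61e-07), the largest among the genes eligible by level. Scn3a, a sodium channel subunit, had 0, 0 and 0.325 CPM in cDC1 and 40.3, 30.4, 42.6 and 32.7 CPM in cDC2, and its log2 fold change was −8.27 ± 0.55. Both transcripts were at or near 0 in all 3 cDC1 libraries. Sirpb1a, a relative of Sirpa, gave 0.424, 0.156 and 0.407 CPM in cDC1 and 168, 174, 183 and 175 CPM in cDC2. Its log2 fold change was −9.03 ± 0.25. Because Sirpa, Sirpb1a and Sirpb1b are similar in sequence, reads could be shared among them in counting, and their separate values are uncertain to that extent. Further genes on this side were Cd101, an inhibitory Ig-like receptor (−7.82 ± 0.50), Ccr6, the receptor for CCL20 (−7.73 ± 0.48), Tlr5, the receptor for flagellin (−7.64 ± 0.58), Ptger3, a receptor for prostaglandin E (−7.61 ± 0.33), and the protease gene Mmp9 (−7.56 ± 0.67). Also in this group were S100a4 (−7.48 ± 0.24), Dab2ip (−7.29 ± 0.46), the succinate receptor gene Sucnr1 (−7.22 ± 0.75) and Cyp4f37 (−7.22 ± 0.53), beside Rtp4 and Dtx1, which are described with their lists.

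By difference in CPM rather than in fold, the cDC1 libraries were set apart by a few very abundant transcripts. Cst3, which encodes cystatin C, an inhibitor of cysteine proteases, was measured at 22914, 19787 and 14785 CPM in cDC1 and 1351, 1053, 891 and 767 CPM in cDC2. The lowest cDC1 library had several times the level of any cDC2 library, with a log2 fold change of 4.24 ± 0.23 (adjusted p = 3.80e-07). Psap, the precursor of the saposins that help degrade sphingolipids, had 19842, 19476 and 7751 CPM in cDC1 and 3629, 4842, 3464 and 2013 CPM in cDC2, with replicate 3 lowest within cDC1. Ppt1, a lysosomal thioesterase, stood at 5629, 5922 and 6255 CPM in cDC1 and 297, 216, 206 and 204 CPM in cDC2. Its groups lay far apart, with a log2 fold change of 4.68 ± 0.17. Tmsb4x, an actin-binding peptide, and the actin genes Actb and Actg1 also led by CPM, with log2 fold changes of 1.09 ± 0.20, 0.70 ± 0.17 and 1.01 ± 0.13. Toward cDC2 the largest CPM differences were in Zfp36, which destabilises cytokine mRNAs (1539 ± 176 against 3363 ± 330.2 CPM), Sirpa, the ferritin chain gene Fth1 (−0.78 on the log2 scale), Dusp1, Ptprc, which encodes CD45 (−1.57), and Lyz2. Tgm2, a transglutaminase, was among them at 13.99, 12.2 and 22.9 CPM in cDC1 and 739, 717, 1094 and 1169 CPM in cDC2.

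Transcription factors of the lineage differed in both directions. Of 39 tested genes, 6 were higher in cDC1 and 18 in cDC2, with a median log2 fold change of −0.44. Irf8 was measured at 3980.0, 4333 and 3954 CPM in cDC1 and 176, 158, 120.2 and 125 CPM in cDC2. Its log2 fold change of 4.82 ± 0.17 (adjusted p = 5.03e-08) came with no overlap. Id2, an inhibitor of E proteins, gave 1688 ± 111 against 372 ± 98.1 CPM, and Mycl, a relative of MYC used by cDC1, gave 917 ± 118 against 199.8 ± 40.5 CPM. Batf3 differed by less, at 77.9, 85.3 and 65.0 CPM in cDC1 and 43.6, 42.0, 39.6 and 51.0 CPM in cDC2, with a log2 fold change of 0.79 ± 0.15 (adjusted p = 0.00191). On the other side stood Zeb2, a repressor that holds back Id2, at 3.39, 1.02 and 5.21 CPM in cDC1 and 154, 138, 161 and 175 CPM in cDC2. Irf4 had 3.22, 3.83 and 14.8 CPM in cDC1 and 92.8, 81.9, 153 and 119 CPM in cDC2, and Klf4, needed by a branch of cDC2, 1.02, 0.859 and 4.39 CPM in cDC1 and 26.7, 26.3, 57.5 and 56.0 CPM in cDC2. Each was higher in all 4 cDC2 libraries, with log2 fold changes of −5.62 ± 0.41, −3.93 ± 0.51 and −4.31 ± 0.58. Tbx21, encoding T-bet, differed by −4.57 ± 0.24, and Prdm1, encoding BLIMP1, by −3.52 ± 0.74. Relb, a subunit of NF-kappaB, had 169 ± 27.2 against 553 ± 52.7 CPM. Zbtb46, a gene of the whole conventional lineage, had 219 ± 10.9 CPM in cDC1 and 192 ± 24.8 CPM in cDC2 and did not pass the test.

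Receptors for microbes went both ways. Of 29 genes of Toll-like receptors and their partners, 5 were higher in cDC1 and 13 in cDC2, with a median of −0.51. Those higher in cDC1 were Tlr3, a sensor of double-stranded RNA, at 503, 578 and 568 CPM in cDC1 and 30.3, 19.01, 13.02 and 7.65 CPM in cDC2, the profilin receptors Tlr11 (3.60 ± 0.15) and Tlr12 (4.71 ± 0.25), and the adaptors Ticam1 (1.18 ± 0.27) and Tirap (1.05 ± 0.20). Ticam1 encodes TRIF, the adaptor used by TLR3. Tlr7, a sensor of single-stranded RNA, stood at 0.594, 1.72 and 1.87 CPM in cDC1 and 130.1, 103.5, 109 and 96.9 CPM in cDC2. Its neighbour on the X chromosome, Tlr8, gave a log2 fold change of −5.32 ± 0.63, and Tlr5 and Tlr1 gave −7.64 ± 0.58 and −4.13 ± 0.25. All were higher in each cDC2 library. Tlr9, a sensor of DNA, did not pass the test, and nor did Unc93b1, which carries TLR3, TLR7 and other receptors to endosomes (1438 ± 216 against 1216 ± 214 CPM). Slc15a4, a lysosomal transporter required for TLR7 signalling, was higher in cDC2 (log2 fold change −2.04 ± 0.30).

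More cytosolic sensors were higher in cDC2 than in cDC1, with 15 of 27 tested members higher there, 1 higher in cDC1 and a median of −1.05. Ddx58, which encodes the RNA sensor RIG-I, was measured at 1.19, 3.75 and 0.976 CPM in cDC1 and 117, 87.4, 106 and 114 CPM in cDC2. Its log2 fold change was −5.73 ± 0.40 (adjusted p = 2.10e-06), with no overlap. The related sensor MDA5, from Ifih1, differed by −1.99 ± 0.27, STING, from Tmem173, by −1.94 ± 0.25, the peptidoglycan sensor Nod1 by −2.07 ± 0.19 and Nlrc4, of the flagellin inflammasome, by −3.01 ± 0.39. Nlrp10 gave −4.60 ± 0.58. The member higher in cDC1 was Ifi205 (2 members with the replicate block), of the interferon-inducible AIM2 family, at 351, 309 and 439.8 CPM in cDC1 and 10.4, 9.61, 12.04 and 6.37 CPM in cDC2. Mavs, the adaptor shared by RIG-I and MDA5, had 33.3 ± 6.87 CPM in cDC1 and 31.5 ± 6.17 CPM in cDC2 and did not pass the test. Il1b, the precursor of interleukin 1 beta, depended on the library name: its values were 129, 79.1 and 739.6 CPM in cDC1 and 251, 236, 3012 and 2359.5 CPM in cDC2. The groups overlapped through the WT-named cDC1 library and the log2 fold change of −2.21 ± 1.03 did not pass (adjusted p = 0.120), whereas within WT-named libraries it was −1.87, within the fl-fl libraries −1.21 (adjusted p = 5.09e-04), without cDC1 replicate 3 −3.80 (adjusted p = 0.0178), and with the replicate block −1.52 (adjusted p = 9.51e-05).

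C-type lectins and other uptake receptors showed 7 of 35 members higher in cDC1 and 21 higher in cDC2, with a median of −1.75. The cDC1 side held Cd36, a scavenger receptor, at 955, 985 and 1059 CPM in cDC1 and 36.5, 10.7, 13.02 and 12.03 CPM in cDC2, Clec9a, Cd207, Ly75, known as DEC-205 (3.14 ± 0.18), Clec12a (1.35 ± 0.13) and the scavenger receptor gene Scarb1 (0.88 ± 0.13). The cDC2 side held Cd209a, a relative of DC-SIGN, at 3.22, 7.42 and 2.93 CPM in cDC1 and 419, 549, 503 and 390.2 CPM in cDC2, the beta-glucan receptor Clec7a at 6.44 ± 4.45 against 307 ± 162 CPM, and Lrp1, a large endocytic receptor, at 4.70 ± 1.68 against 66.9 ± 7.10 CPM. Clec12a, listed here as a marker of cDC2, was higher in all 3 cDC1 libraries (181, 168 and 193 CPM in cDC1 and 64.0, 67.7, 81.2 and 70.8 CPM in cDC2). It was the only member of the cDC2 marker list called that way, against 23 of 25 called higher in cDC2.

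A cluster of lectin genes on chromosome 6 split between the subsets. Along chr6, in order, lie Clec4a1 (chr6:122921848-122934619), Clec4a3, Clec4a4, Clec4b1, Clec4a2, Clec4b2 (chr6:123172893-123204671) and Clec4n, all on the + strand. Their log2 fold changes in that order were −7.02, −5.94, −9.05, −7.68, −5.54, 8.01 and −1.75. Clec4b2 thus ran against its 6 tested neighbours, at 26.2, 40.8 and 31.2 CPM in cDC1 and 0.246, 0.212, 0 and 0 CPM in cDC2. Its closest relative by name, Clec4b1, was measured at 0.0848, 0.0781 and 0 CPM in cDC1 and 16.4, 10.95, 13.2 and 11.9 CPM in cDC2. The genes are similar in sequence, so reads could have been divided among them by the authors' counting, which bears on single values.

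Fc, Ig-like and inhibitory receptors had 4 of 34 members higher in cDC1 and 23 higher in cDC2, with a median of −2.50. Higher in cDC1 were Fcrla (4.37 ± 0.50), Btla, an inhibitory receptor for HVEM, at 608, 574 and 669.7 CPM in cDC1 and 109, 80.3, 79.9 and 95.8 CPM in cDC2, Treml4 (2.19 ± 0.16) and Fcgrt, the neonatal Fc receptor (1.10 ± 0.14). Fcer1g, the signalling chain shared by activating Fc receptors, was measured at 27.8, 24.9 and 26.9 CPM in cDC1 and 603, 497, 484 and 397 CPM in cDC2, with all cDC2 libraries higher. Its partner receptors Fcgr3 and Fcgr4 differed by −3.14 ± 0.31 and −2.43 ± 0.25. Siglece, an inhibitory receptor for sialic acid, gave −5.19 ± 0.21, Cd22 gave −4.08 ± 0.20 and Cd300lf gave −4.84 ± 0.24.

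Among chemokines and migration receptors, 9 of 36 members were higher in cDC1 and 13 in cDC2, with a median of −0.62. Cxcl9, which attracts T cells through CXCR3, was found at 217, 207 and 244 CPM in cDC1 and 15.03, 12.8, 14.8 and 17.6 CPM in cDC2, and Cxcr3 itself differed by 4.30 ± 0.41. Both were higher in every cDC1 library. The UDP-glucose receptor P2ry14 gave 5.61 ± 0.30, Ccr9 gave 2.66 ± 0.24 and Ccl22 gave 2.1 ± 0.26. For cDC2, Gpr183 (EBI2), the oxysterol receptor that places these cells in the bridging channels of the spleen, was measured at 2.80, 3.83 and 23.4 CPM in cDC1 and 296, 264, 339.5 and 352 CPM in cDC2. Cx3cr1 differed by −5.89 ± 0.27, Ccr2 by −2.59 ± 0.20 and Ccl9 by −5.0 ± 0.28. Ccr7, which guides mature dendritic cells to T cell zones, followed the library name instead: it had 861, 389 and 1378 CPM in cDC1 and 443, 331, 1594 and 1402 CPM in cDC2. The subsets overlapped, and the log2 fold change of −0.11 ± 0.55 (adjusted p = 0.903) was 0.70 within fl-fl libraries (adjusted p = 0.0669) and −0.13 within WT-named ones.

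Cytokines and their receptors showed 5 of 43 members higher in cDC1 (3 within WT-named libraries) and 18 in cDC2, with a median of −0.48. Il12b, which encodes the shared p40 chain of IL-12 and IL-23, was measured at 73.6, 46.9 and 240.0 CPM in cDC1 and 13.9, 6.71, 22.1 and 29.8 CPM in cDC2. The WT-named cDC1 library was highest, and no cDC2 library reached the lowest of cDC1 (log2 fold change 2.73 ± 0.57 (adjusted p = 0.00367)). It was 2.57 within fl-fl libraries and 3.20 within WT-named ones. Il15 and its presenting receptor chain Il15ra differed by 1.99 ± 0.32 and 1.55 ± 0.27. In cDC2, Csf1r, the receptor for M-CSF, stood at 27.3, 32.03 and 48.7 CPM in cDC1 and 638, 791, 631 and 631 CPM in cDC2, Ltb, encoding lymphotoxin beta, at 27.0 ± 7.81 against 367 ± 72.8 CPM, Il2rg, the common gamma chain, at 77.1 ± 12.7 against 568 ± 82.5 CPM, and Il1rn, the interleukin 1 receptor antagonist, at 1.27 ± 1.04 against 64.2 ± 18.7 CPM. Ptgs2, which encodes the inducible cyclooxygenase, had 2.97, 3.52 and 26.9 CPM in cDC1 and 238, 166, 1855 and 1462 CPM in cDC2. Every cDC2 library exceeded every cDC1 library, although the WT-named libraries of both subsets were several times above the fl-fl ones. The log2 fold change was −5.94 within fl-fl libraries and −5.95 within WT-named ones, of which cDC1 has 1.

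Costimulatory and checkpoint ligands numbered 7 of 35 higher in cDC1 and 14 in cDC2, with a median of −0.56. Cd86, a ligand of CD28, was measured at 492, 520.4 and 595 CPM in cDC1 and 115, 71.6, 91.2 and 111 CPM in cDC2. Cd80, which binds the same receptors, went the other way, at 9.58, 9.999 and 17.2 CPM in cDC1 and 19.3, 14.6, 45.3 and 36.6 CPM in cDC2. The log2 fold changes were 2.46 ± 0.17 (adjusted p = 2.30e-06) and −1.24 ± 0.40 (adjusted p = 0.0321). The call of Cd80 was lost without cDC1 replicate 1 or 2, or cDC2 replicate 3 or 4 (adjusted p = 0.0808 to 0.116). The PD-1 ligand genes Cd274 and Pdcd1lg2 were higher in cDC2, with log2 fold changes of −2.40 ± 0.36 and −3.57 ± 0.31, as was Tnfsf8, the ligand of CD30, with −5.23 ± 0.70. Sema4a and Sema4d, semaphorins that act on T and B cells, lay on opposite sides, at 2.33 ± 0.21 and −1.99 ± 0.13.

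Genes of the MHC class I pathway were more often higher in cDC1, with 13 of 24 members, 1 higher in cDC2 and a median of 0.80. The count in cDC2 was 0 with no filter on low counts, within either library name and on leaving out any library other than cDC2 replicate 1. The peptide transporter gene Tap1 was measured at 1133, 1059 and 814 CPM in cDC1 and 392, 456, 249 and 322 CPM in cDC2. Psmb9 and Psmb8, subunits of the immunoproteasome, differed by 1.67 ± 0.16 and 1.29 ± 0.16, its activator subunit Psme1 by 1.38 ± 0.13, and Tap2 by 1.28 ± 0.12. Of the chains themselves, H2-K1 and B2m, the light chain, did not pass the test (0.04 and −0.29), although B2m passed with the replicate block (−0.39, adjusted p = 0.00469). Cd1d1, which presents lipids to NKT cells, was higher in cDC1 (log2 fold change 1.82 ± 0.14).

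Of 31 members of cross-presentation and the phagosomal NADPH oxidase, 10 were higher in cDC1 and 6 in cDC2, with a median of 0.29, and 14 and 7 with the replicate block. Wdfy4, needed for cross-presentation by cDC1, was measured at 2015, 2600.1 and 2233 CPM in cDC1 and 955, 959, 962 and 878 CPM in cDC2. Apol7c, whose product opens phagosomes to the cytosol, had 1083, 835 and 986 CPM in cDC1 and 179, 128, 151 and 145 CPM in cDC2, and Rab43 had 1214 ± 136 against 495 ± 51.5 CPM. Rab7b and Rab32, small GTPases of late endosomes, differed by 5.95 ± 0.35 and 2.30 ± 0.14. All 5 were higher in each cDC1 library. Cybb, the catalytic subunit of the oxidase (gp91phox), stood at 4.16, 5.62 and 7.24 CPM in cDC1 and 624, 661, 665 and 609 CPM in cDC2. This is a log2 fold change of −6.81 ± 0.22 (adjusted p = 2.53e-08). The proton channel gene Hvcn1, which supports the oxidase, gave −3.60 ± 0.23.

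On the MHC class II side 8 of 31 members were higher in cDC1 and 13 in cDC2, with a median of −0.05. Cd74, the invariant chain, was measured at 54694, 49306 and 32881 CPM in cDC1 and 35585, 43872, 31710.1 and 29936 CPM in cDC2, with overlap and an adjusted p of 0.170. Without cDC1 replicate 3, the lowest of its group, Cd74 gave 0.58 (adjusted p = 0.0188). Of the classical chain genes, H2-Ab1 gave 0.57 ± 0.16 and passed, but not without cDC1 replicate 1 or replicate 2 (adjusted p = 0.0627 and 0.0729). The genes H2-DMb1 and H2-DMb2, which lie side by side on chromosome 17 and encode alternative beta chains of the peptide editor H2-DM, were opposed. H2-DMb1 (chr17:34153072-34160230) had 629, 612 and 582 CPM in cDC1 and 269, 325, 321 and 343 CPM in cDC2, and H2-DMb2 (chr17:34143307-34151555) had 81.1, 74.1 and 72.9 CPM in cDC1 and 386, 474, 370.1 and 407 CPM in cDC2. Neither pair of groups overlapped, and the log2 fold changes were 0.95 ± 0.12 (adjusted p = 1.60e-04) and −2.43 ± 0.14 (adjusted p = 5.58e-07), with the reservation that the copies are similar in sequence. Some proteases of the pathway were higher in cDC2, namely Ctss (−0.98 ± 0.13), Ctsc (−1.59 ± 0.16), Ctsd (−1.50 ± 0.19) and Ctsh (−0.90 ± 0.13). The other proteases of the list are not reported here. The protease inhibitor gene Cst3 was higher in cDC1.

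Lysosomal genes were higher in cDC1 for 17 of 40 members and in cDC2 for 11, with a median of 0.26. Naaa, an amidase of lipid amides, had 2916, 2540.0 and 2060.0 CPM in cDC1 and 105, 94.2, 65.7 and 52.3 CPM in cDC2. Gusb, Fuca1 and Npc2, a cholesterol carrier, differed by 3.63 ± 0.16, 2.53 ± 0.13 and 1.45 ± 0.15. Its partner in cholesterol export, Npc1, was higher in cDC2 (log2 fold change −2.03 ± 0.25). Tfeb, a regulator of lysosome genes, also lay on the cDC2 side (−1.65 ± 0.15), as did Acp5 (−2.88 ± 0.18) and Ctsa (−2.21 ± 0.13). With library totals in place of TMM the counts were 14 and 14.

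The 2 genes that the knockout mice are named for were measured first in WT cells. Ern1, encoding IRE1 (chr11:106394650-106487852), was measured at 22.9, 29.9 and 24.2 CPM in cDC1 and 25.3, 30.7, 25.3 and 19.8 CPM in cDC2, values that overlap (log2 fold change 0.02 ± 0.19, adjusted p = 0.944). Its substrate Xbp1 (chr11:5520659-5525893) had 238, 149.5 and 148 CPM in cDC1 and 155, 98.4, 69.3 and 73.2 CPM in cDC2. Replicate 1 was highest in both subsets, the groups overlapped by that cDC2 library, and the log2 fold change of 0.85 ± 0.28 passed narrowly (adjusted p = 0.0360). Without cDC1 replicate 1 it was 0.60 (adjusted p = 0.162). Leaving out cDC2 replicate 2, 3 or 4 ended the call as well (adjusted p = 0.0693 to 0.0907). Within fl-fl libraries it was 0.63 (adjusted p = 0.0576). Gene counts do not separate the spliced from the unspliced form.

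ER chaperones and secretory genes were higher in cDC1. Of the 50 members, all tested, 32 were higher in cDC1, 20 of them at least 2-fold, and 2 were higher in cDC2, with a median log2 fold change of 0.85. With the replicate block the numbers were 35 and 4, with the library name as a term 36 and 4, and with library totals 28 and 4. Hspa5, the chief ER chaperone BiP, was measured at 1470.4, 1672 and 2799.5 CPM in cDC1 and 634, 587, 941 and 991 CPM in cDC2. Hsp90b1, which encodes GRP94, had 911, 965 and 1316 CPM in cDC1 and 275, 239.9, 319 and 271 CPM in cDC2. Creld2, an ER protein induced by unfolded proteins, stood at 144, 160.1 and 133 CPM in cDC1 and 25.4, 30.8, 32.5 and 25.8 CPM in cDC2. In each of these genes the lowest cDC1 library was above the highest cDC2 library, and the log2 fold changes were 1.33 ± 0.25 (adjusted p = 0.00201), 1.95 ± 0.16 (adjusted p = 6.73e-06) and 2.35 ± 0.14 (adjusted p = 8.72e-07). Derl3, a component of ER-associated degradation, gave 11.96, 14.6 and 10.5 CPM in cDC1 and 0.822, 0.424, 1.22 and 0.239 CPM in cDC2. It had the largest log2 fold change of the list, 4.18 ± 0.45. Others were Manf (2.12 ± 0.12), Sdf2l1 (1.85 ± 0.15), the disulfide isomerases Pdia3 (1.71 ± 0.12), Pdia4 (1.53 ± 0.13) and Pdia6 (1.59 ± 0.13), Calr (1.40 ± 0.12) and Sec61a1, of the translocon (1.03 ± 0.19). The 2 members higher in cDC2 were Atf6, a sensor of another arm (−0.97 ± 0.17), and Edem3 (−0.70 ± 0.17). Ddit3, which encodes CHOP and lies on another arm, did not pass the test (−0.46).

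**Figure D3:**
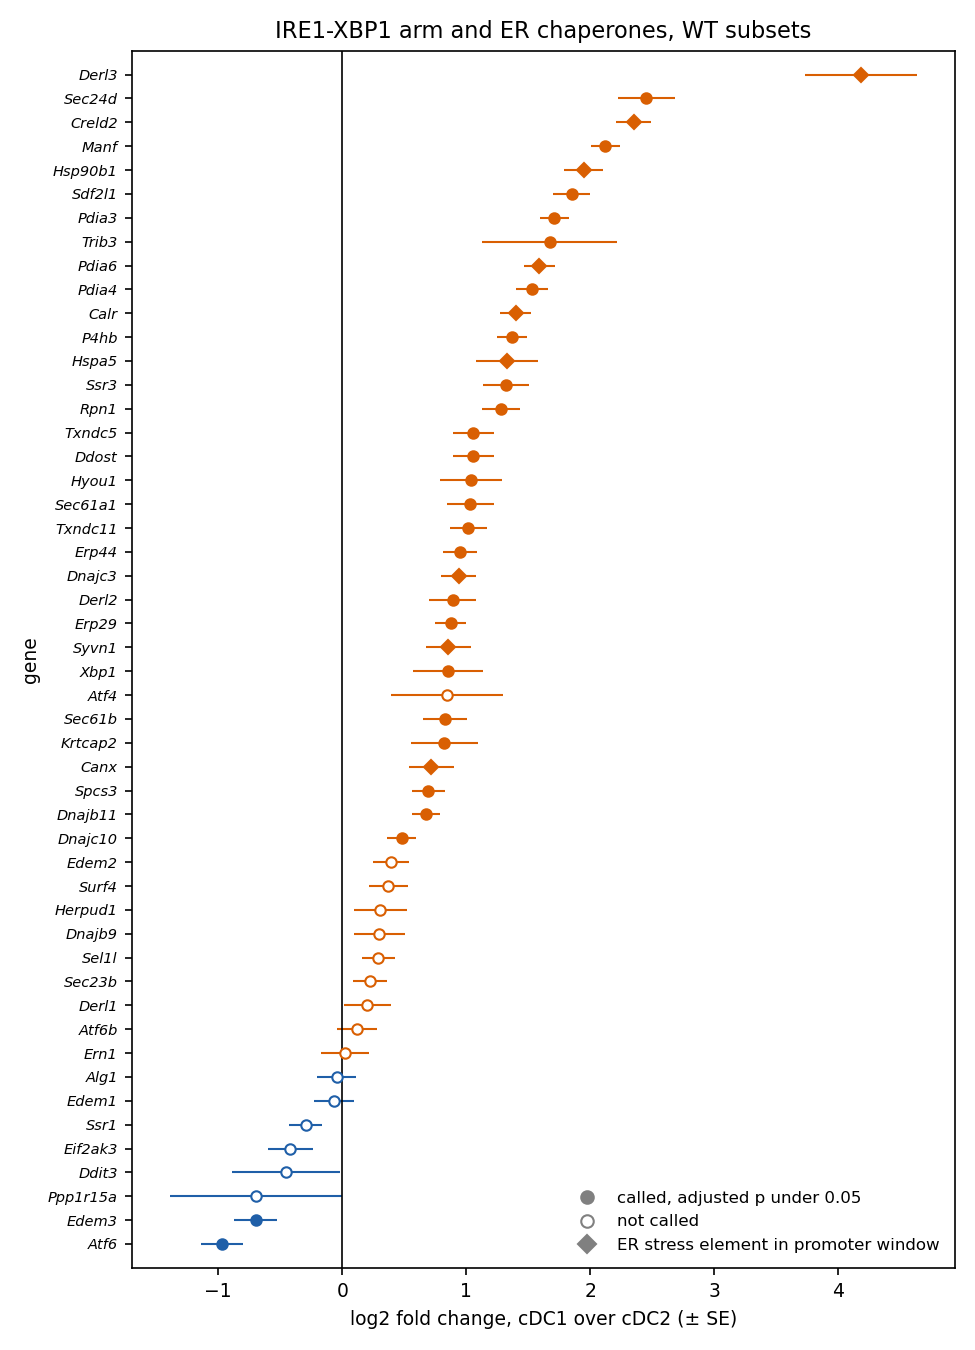
Log2 fold change (cDC1 over cDC2) with its standard error for the 50 genes of the IRE1-XBP1 arm and ER chaperones; filled points passed the adjusted p of 0.05, open points did not, and diamonds mark genes whose promoter window holds the ER stress element. With the filled points to the right of 0 numbering 32 and those to the left 2, the list lies toward cDC1; library totals in place of TMM leave 28 and 4.

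Promoters of this list were searched for the ER stress element, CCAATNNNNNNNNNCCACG, on both strands of the 250 bases before each gene's start (RefSeq, GRCm38.p6). A promoter was found for 43 members, and 9 of them held the element (20.9%). All 9 are among the 27 that were called higher in cDC1, namely Calr, Canx, Creld2, Derl3, Dnajc3, Hsp90b1, Hspa5, Pdia6 and Syvn1, although Canx was not called without cDC1 replicate 1 (adjusted p = 0.0527). The share was 0.113% of all 32851 promoter windows and 0.159% of 8816 tested genes with a promoter. Of genes called higher in cDC1 it was 9 of 1593 (0.565%), the same 9 list members. Of those called higher in cDC2 it was 1 of 1582 (0.0632%). The windows of 4 of them are shown, 5′ to 3′ on the strand of the gene, because they carry the element upstream of the genes described above. Capitals mark the element, in either orientation. The windows lie at chr2:34771840-34772089, + strand, for Hspa5, chr10:86705445-86705694, − strand, for Hsp90b1, chr15:88819396-88819645, + strand, for Creld2, and chr10:75893148-75893397, + strand, for Derl3.
Hspa5: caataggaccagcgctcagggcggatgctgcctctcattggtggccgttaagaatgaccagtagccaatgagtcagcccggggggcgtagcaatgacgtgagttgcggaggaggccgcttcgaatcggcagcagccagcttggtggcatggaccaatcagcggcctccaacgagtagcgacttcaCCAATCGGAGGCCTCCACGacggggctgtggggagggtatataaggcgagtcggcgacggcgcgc
Hsp90b1: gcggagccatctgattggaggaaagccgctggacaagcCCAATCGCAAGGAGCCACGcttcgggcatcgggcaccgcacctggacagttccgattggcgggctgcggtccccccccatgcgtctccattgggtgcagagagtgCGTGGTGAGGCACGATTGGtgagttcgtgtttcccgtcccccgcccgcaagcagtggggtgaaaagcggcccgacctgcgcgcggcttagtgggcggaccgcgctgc
Creld2: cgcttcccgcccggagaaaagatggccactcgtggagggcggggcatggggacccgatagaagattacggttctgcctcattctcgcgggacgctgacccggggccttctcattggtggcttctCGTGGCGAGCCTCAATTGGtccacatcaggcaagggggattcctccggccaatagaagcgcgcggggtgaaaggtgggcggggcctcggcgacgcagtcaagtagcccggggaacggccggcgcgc
Derl3: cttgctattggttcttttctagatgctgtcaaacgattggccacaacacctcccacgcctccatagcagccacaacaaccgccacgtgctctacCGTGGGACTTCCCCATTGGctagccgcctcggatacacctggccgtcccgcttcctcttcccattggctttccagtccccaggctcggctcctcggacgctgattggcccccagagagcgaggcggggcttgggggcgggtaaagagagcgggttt
Hsp90b1 holds 2 matches and the other 3 hold 1 each. A match describes these letters and does not show that a factor binds there.

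Of 12 tested genes reported as substrates of the IRE1 RNase other than Xbp1, 3 were higher in cDC1 (5 in the fit of all 19 libraries) and 3 in cDC2. Those higher in cDC1 were Sparc (2.42 ± 0.69), Erp44 (0.95 ± 0.14) and Rtn4 (0.51 ± 0.16). Higher in cDC2 were Itgb2, the beta2 integrin chain, at 554, 402 and 329 CPM in cDC1 and 926, 976, 926 and 888 CPM in cDC2, the lysosomal Hgsnat (−1.07 ± 0.15) and Cd300lf. Bloc1s1, the substrate used most often as a readout, had 30.6 ± 3.81 CPM in cDC1 and 27.8 ± 2.91 CPM in cDC2 and did not pass the test, and nor did Tapbp (1409.8 ± 389 against 971 ± 209 CPM). With the replicate block Tapbp passed (0.44, adjusted p = 0.0149), as it did without cDC1 replicate 3 (adjusted p = 0.00994) or cDC2 replicate 2 (adjusted p = 0.0347). Without cDC1 replicate 2 the count higher in cDC1 was 1, as the calls of Rtn4 and Sparc were lost (adjusted p = 0.0923 and 0.0510). Rtn4 was also lost without cDC1 replicate 1 or cDC2 replicate 4, and Sparc without cDC1 replicate 3.

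Interferon-stimulated genes were mostly higher in cDC2, for 23 of 34 tested members, against 4 in cDC1, with a median of −1.37. Within fl-fl libraries the counts were 23 and 3, and within WT-named ones 21 and 6. Without cDC2 replicate 2, or without cDC2 replicate 3, the count in cDC1 was 2. Rtp4, an antiviral gene of this group, was measured at 1.02, 0.781 and 0.163 CPM in cDC1 and 137, 75.2, 64.0 and 89.3 CPM in cDC2. Ifit1, which binds viral RNA, had 0.848, 0 and 3.25 CPM in cDC1 and 27.5, 15.05, 36.1 and 51.4 CPM in cDC2. Oas1a, an oligoadenylate synthetase, stood at 3.73, 3.12 and 2.12 CPM in cDC1 and 66.9, 65.7, 32.8 and 60.4 CPM in cDC2. The cDC2 libraries were higher throughout, with log2 fold changes of −7.11 ± 0.46 (adjusted p = 1.25e-06), −4.57 ± 0.79 (adjusted p = 0.00115) and −4.24 ± 0.32 (adjusted p = 3.81e-06). Ifit3 gave −4.28 ± 0.63, Oasl2 −5.30 ± 0.58, Ifitm3 −2.48 ± 0.20 and Isg15 −1.76 ± 0.29. Members on the cDC1 side were Cxcl9, Mx1 (1.61 ± 0.47), Ifi44 (1.41 ± 0.44) and Trim30a (0.91 ± 0.13). Mx1 was no longer called without cDC1 replicate 3 or cDC2 replicate 2 or 3 (adjusted p = 0.0512 to 0.0930), and Ifi44 without cDC1 replicate 1 or cDC2 replicate 2, 3 or 4 (adjusted p = 0.0621 to 0.0697). Stat2, a transcription factor that relays interferon signals, was higher in cDC2 (log2 fold change −0.74 ± 0.16). The receptor chain gene Ifnar2 gave −0.89 ± 0.20, and Ifnar1 did not pass.

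**Figure D4:**
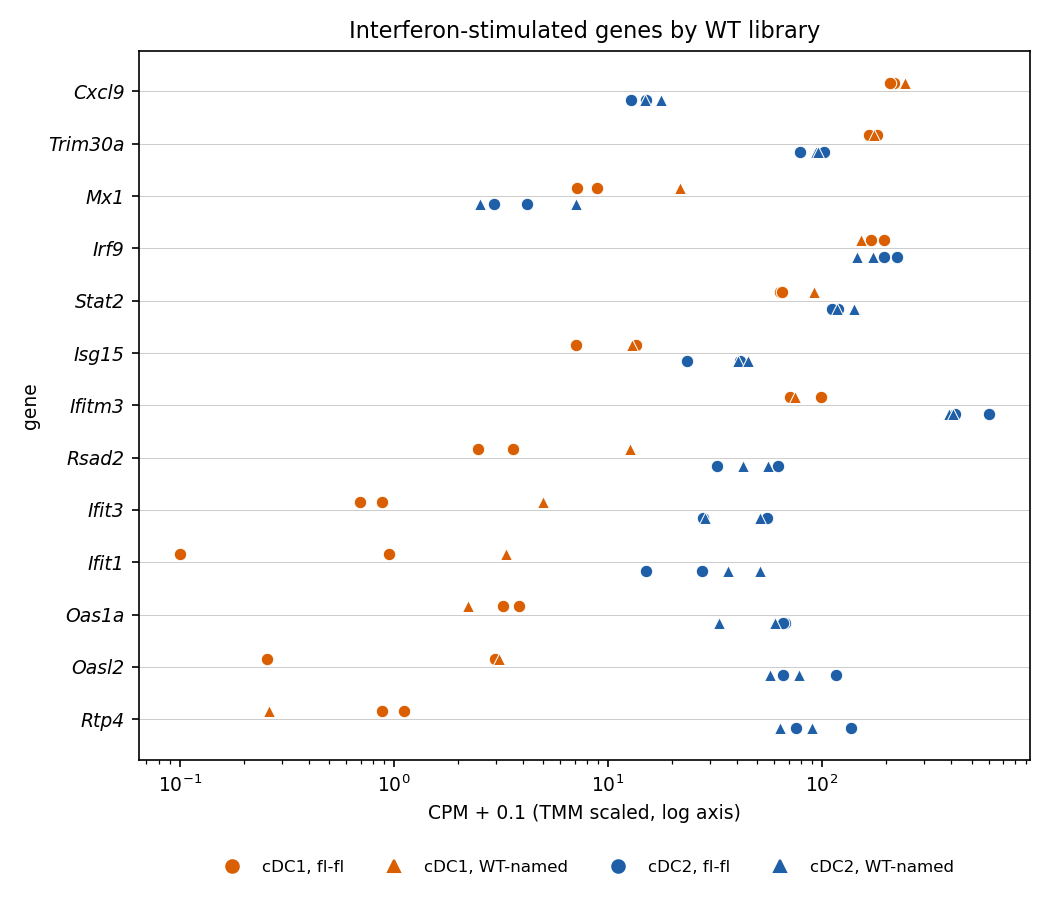
Level of 13 interferon-stimulated genes in each WT library (CPM plus 0.1, log axis); points and colours as in the plot of subset markers. In Rtp4, Oasl2, Oas1a and Ifit1 all 4 cDC2 libraries lie to the right of the 3 cDC1 libraries, and Cxcl9 and Trim30a lie the other way.

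The promoters of these genes were searched in the same windows for GAAANNGAAA, the core of the interferon-stimulated response element, on both strands. Of 25 tested members with a promoter 14 held it (56.0%), and of the 17 called higher in cDC2 it was 11 (64.7%). Over all windows the share was 2.98%, and over tested genes 3.49%. Genes called higher in cDC1 held it in 3.70% and those higher in cDC2 in 5.37%. Windows of Ifit1 (chr19:34640639-34640888, + strand), Ifit3 (chr19:34583279-34583528, + strand), Isg15 (chr4:156200819-156201068, − strand) and Oas1a (chr5:120907526-120907775, − strand) are shown with each match in capitals, as examples of genes described above whose windows hold 2 or 3 matches each.
Ifit1: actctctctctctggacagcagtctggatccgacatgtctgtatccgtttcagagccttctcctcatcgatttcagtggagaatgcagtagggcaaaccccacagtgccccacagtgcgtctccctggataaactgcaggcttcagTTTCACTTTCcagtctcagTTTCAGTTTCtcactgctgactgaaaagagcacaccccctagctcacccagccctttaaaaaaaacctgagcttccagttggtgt
Ifit3: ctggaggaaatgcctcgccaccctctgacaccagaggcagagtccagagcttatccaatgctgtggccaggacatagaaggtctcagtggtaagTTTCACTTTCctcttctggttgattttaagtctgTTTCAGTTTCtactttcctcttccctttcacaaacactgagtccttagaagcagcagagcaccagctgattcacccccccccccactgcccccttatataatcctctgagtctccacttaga
Isg15: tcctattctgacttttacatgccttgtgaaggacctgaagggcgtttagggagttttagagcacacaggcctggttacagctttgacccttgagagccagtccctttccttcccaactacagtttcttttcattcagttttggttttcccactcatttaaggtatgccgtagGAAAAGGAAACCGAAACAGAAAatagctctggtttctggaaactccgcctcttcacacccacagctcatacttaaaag
Oas1a: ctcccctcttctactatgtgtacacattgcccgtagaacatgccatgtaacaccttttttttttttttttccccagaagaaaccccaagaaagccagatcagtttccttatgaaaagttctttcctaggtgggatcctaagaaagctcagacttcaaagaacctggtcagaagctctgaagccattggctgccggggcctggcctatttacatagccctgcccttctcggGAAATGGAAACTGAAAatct
Matches that overlap run together as 1 stretch of capitals, and no match overlaps an ER stress element.

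Cd83 and the immediate early genes varied with the library name. The maturation list as a whole also varied within the fl-fl name. Its mean log2 of CPM plus 0.5 was 5.75, 5.07 and 5.99 in cDC1 and 5.47, 5.33, 5.61 and 5.67 in cDC2. Of 44 genes of homeostatic maturation 14 were higher in cDC1 and 15 in cDC2, with a median of −0.15. Laptm4b, a lysosomal membrane protein, was measured at 283, 182 and 214 CPM in cDC1 and 4.68, 4.59, 2.93 and 5.02 CPM in cDC2. Serpinb9, an inhibitor of granzyme B, and Arc gave 3.05 ± 0.25 and 3.97 ± 0.46 on the cDC1 side. Tmem176a and Tmem176b, ion channel genes of antigen-presenting cells, gave −2.92 ± 0.28 and −3.65 ± 0.27 on the cDC2 side, and Stat4 gave −4.52 ± 0.44. Cd83, a maturation marker, had 844, 630.2 and 2822 CPM in cDC1 and 516, 453, 3490.5 and 3313 CPM in cDC2. In both subsets the fl-fl libraries lay well below the WT-named ones, and the log2 fold change was 0.62 within fl-fl libraries (adjusted p = 0.0109) and −0.28 within WT-named ones. Immediate early genes summed to 15054 to 19721 CPM in cDC1 and 17850 to 31154 CPM in cDC2, with the WT-named libraries highest in each subset. Of 26 members 5 were higher in cDC2 and 0 in cDC1. With the replicate block 8 were higher in cDC1 and 9 in cDC2, and within fl-fl libraries 6 and 5. Within WT-named libraries the numbers were 5 and 13, and without cDC1 replicate 3 they were 1 and 6. The library name as a term gave 6 and 10, and the fit of all 19 libraries 0 and 8. Dusp1, a MAP kinase phosphatase, gave −1.31 ± 0.17, and Jun, a subunit of AP-1, gave −1.42 ± 0.26.

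Of 44 nuclear genes of the respiratory chain 29 were higher in cDC1 and 0 in cDC2, with a median of 0.58. The differences were small and in 1 direction. Cycs, encoding cytochrome c, was measured at 403, 377 and 438 CPM in cDC1 and 209, 162, 186 and 196 CPM in cDC2. Atp5b, the catalytic beta subunit of ATP synthase, had 1752, 1601 and 1339 CPM in cDC1 and 959, 976, 825 and 871 CPM in cDC2. Neither gene overlapped between the groups, and the log2 fold changes were 1.11 ± 0.13 (adjusted p = 7.06e-05) and 0.79 ± 0.13 (adjusted p = 9.41e-04). With library totals in place of TMM 19 members were higher in cDC1, and without cDC1 replicate 1 also 19. Glycolytic genes went both ways, with 12 of 29 higher in cDC1 and 7 in cDC2. Hexokinase genes differed in opposite directions: Hk3 had 213, 206 and 137 CPM in cDC1 and 8.05, 8.69, 5.13 and 7.25 CPM in cDC2, and Hk1 gave −1.05 ± 0.17. Ldha, for the muscle-type chain of lactate dehydrogenase, was higher in cDC1 (log2 fold change 1.21 ± 0.14), and Ldhb, for the heart-type chain, was higher in cDC2 (log2 fold change −4.72 ± 0.72). The glucose transporter gene Slc2a3 was measured at 4.75, 8.44 and 4.39 CPM in cDC1 and 280.5, 290.3, 249 and 215 CPM in cDC2. It lies near the lectin cluster on chromosome 6 (chr6:122727809-122801640) and had a log2 fold change of −5.46 ± 0.27 (adjusted p = 2.26e-07). The main transporter gene Slc2a1 did not pass (36.4 ± 11.2 against 54.3 ± 16.2 CPM). In cholesterol synthesis 7 of 25 members were higher in cDC1 and 0 in cDC2 (1 with the replicate block, with library totals, in the fit of all 19 libraries or without cDC2 replicate 4, 2 with the library name as a term and 3 within WT-named libraries), led by Fdps (1.32 ± 0.21). Of 16 genes of the LXR pathway and cholesterol efflux, 3 were higher in cDC1 and 4 in cDC2, the latter including Nr1h3, which encodes LXR alpha (−1.73 ± 0.34), its target Abca1 (−3.41 ± 0.61) and Pltp (−6.02 ± 0.31).

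Notch genes counted 6 of 25 higher in cDC1 and 7 in cDC2. Dtx1, a Notch-induced ubiquitin ligase, was measured at 1.78, 4.06 and 4.88 CPM in cDC1 and 494, 569.8, 479 and 409 CPM in cDC2. Notch4 had 117, 106 and 101 CPM in cDC1 and 6.90, 5.86, 7.32 and 4.30 CPM in cDC2. They differ in opposite directions by −7.08 ± 0.33 (adjusted p = 1.58e-07) and 4.14 ± 0.19 (adjusted p = 1.72e-07). Notch2, the receptor that splenic cDC2 depend on, did not pass the test (241 ± 50.7 against 306 ± 85.9 CPM), but passed with the replicate block (−0.50, adjusted p = 0.00408). Esam, a surface marker of cells that received Notch2 signals, was higher in cDC2 at 15.4, 13.4 and 8.14 CPM in cDC1 and 73.1, 77.8, 65.2 and 55.0 CPM in cDC2.

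Integrins and adhesion molecules had 14 of 35 members higher in cDC1 and 13 in cDC2, and 9 and 14 with library totals. Within the beta2 family the shared chain Itgb2 and the alpha chains Itgax (CD11c, −0.84 ± 0.18) and Itgam (CD11b, −6.06 ± 0.26) were higher in cDC2. The other alpha chains of this family are not reported here. Itgam was measured at 2.29, 1.87 and 3.82 CPM in cDC1 and 147, 174, 201 and 189.6 CPM in cDC2, which separates every library by subset. Beside Itgae, the adhesion gene Cadm1 was higher in cDC1 at 865, 828 and 949 CPM in cDC1 and 45.2, 17.9, 18.6 and 28.0 CPM in cDC2. Itga1, a collagen-binding chain, gave 4.29 ± 0.40, and on the cDC2 side Itgb3 gave −5.08 ± 0.35 and Epcam −2.63 ± 0.36.

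Cell cycle genes differed in few cases, with 3 of 45 higher in cDC1 and 7 in cDC2 and a median of −0.26. The D-type cyclin genes were higher in cDC2, Ccnd1 at 61.9, 57.1 and 58.6 CPM in cDC1 and 353, 343, 264 and 279.9 CPM in cDC2 and Ccnd2 by −2.75 ± 0.24. Cdc20, of mitotic exit, was higher in cDC1 (1.18 ± 0.27). The count in cDC2 was 15 with the replicate block or the library name as a term, 12 with DESeq2 or library totals, 4 within fl-fl libraries, 26 within WT-named ones, 13 without cDC1 replicate 2, and 4 without cDC1 replicate 1 or without cDC2 replicate 4. In the BCL2 family 7 of 17 members were higher in cDC1 and 4 in cDC2. The latter count was 1 without cDC1 replicate 1 or cDC2 replicate 1, and 2 without cDC1 replicate 2 or cDC2 replicate 3. On the cDC1 side Bcl2l14 gave 3.26 ± 0.27, and the BH3-only genes Bid, Bad and Bcl2l11 (BIM) gave 1.24 ± 0.15, 1.23 ± 0.18 and 0.84 ± 0.15. Another BH3-only gene was among the 4 members higher in cDC2.

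The libraries of the knockout mice gave the same contrast in cells that share no library with the WT ones, only the estimate of spread. The targeted genes were measured first, with TMM scaling over all 19 libraries, so their WT values differ slightly from those given above. Over WT, Xbp1 KO and Xbp1-Ire1 KO, Xbp1 ranged from 147 to 239.8, 92.9 to 117 and 312 to 359 CPM in cDC1, and from 70.3 to 154, 40.8 to 55.7 and 55.9 to 76.0 CPM in cDC2. Ern1 ranged from 23.05 to 29.9, 27.8 to 34.3 and 52.3 to 72.6 CPM in cDC1, and from 20.1 to 30.7, 25.9 to 29.99 and 20.6 to 30.2 CPM in cDC2. Neither gene was near 0 in any knockout library, and both were higher in the cDC1 libraries labelled Xbp1-Ire1 KO than in those of WT. Counts over a whole gene do not show whether a deleted part is missing, so they do not check these labels. The Xbp1 KO cDC1 replicate 3 held 13 pancreatic acinar transcripts at 2019 CPM in sum, while the highest of the other libraries had 8.58 CPM. Counts are given with and without it.

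In a fit of all 19 libraries with 12185 genes, 39.1% of genes were called between the subsets in Xbp1 KO mice and 42.6% in Xbp1-Ire1 KO mice. Of the 2092 WT genes higher in cDC1, 1562 (74.7%) were called the same way in Xbp1 KO and 1660 (79.3%) in Xbp1-Ire1 KO, and 23 and 17 were called the opposite way. For the 2103 genes higher in cDC2 the same way numbered 1626 (77.3%) and 1732 (82.4%), and the opposite way 3 and 4. Among differences of at least 2-fold the shares called alike lay between 84.7% and 85.8%. Without the Xbp1 KO library with acinar transcripts 3979 in place of 4766 genes were called in Xbp1 KO, and 1346 (64.3%) and 1468 (69.8%) of the WT genes were called the same way, 18 and 3 the opposite way. Among 2-fold differences these shares were 80.9% and 79.1%. Xcr1 differed by 6.71 on the log2 scale in WT, 7.22 in Xbp1 KO and 7.14 in Xbp1-Ire1 KO. Sirpa gave −6.42, −5.45 and −5.47 in the same order. Irf8 gave 4.81, 4.80 and 4.93, and Zeb2 gave −5.63, −4.70 and −5.45.

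**Figure D5:**
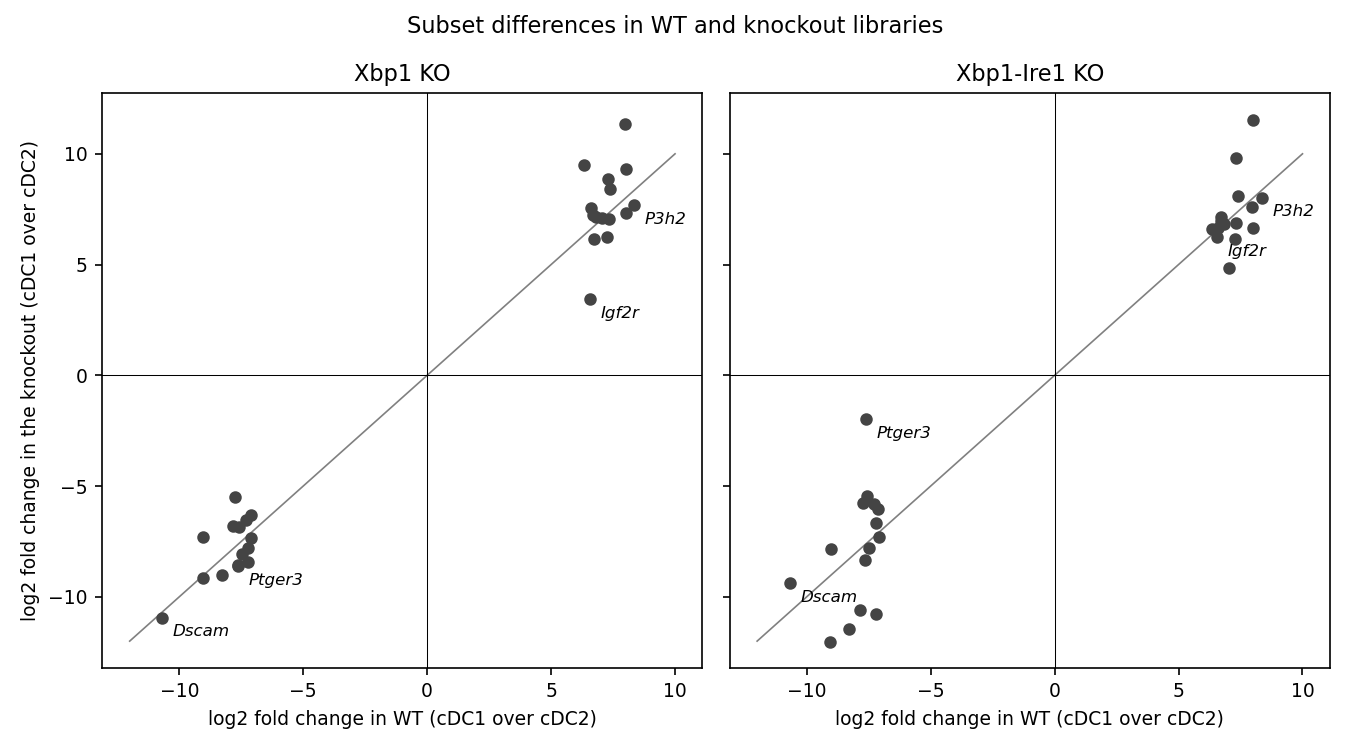
Log2 fold change (cDC1 over cDC2) of 30 genes, the 15 with the largest WT differences in each direction, in WT (horizontal axis) and in Xbp1 KO or Xbp1-Ire1 KO libraries (vertical axis, 1 panel each), from the fit of all 19 libraries; the line is equality. All 30 keep their direction in both panels, and Igf2r in Xbp1 KO and Ptger3 in Xbp1-Ire1 KO are the only 2 points whose interaction with genotype passed the test.

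Whether a difference between subsets itself changed with genotype was tested as an interaction, which passed for 2.17% of genes in Xbp1 KO and 2.23% in Xbp1-Ire1 KO, or 264 and 272 of 12185. Without the library with acinar transcripts they were 209 and 257. Igf2r differed by 6.56 in WT and 3.46 in Xbp1 KO (interaction adjusted p = 0.00237, and 0.00662 without that library). Ptger3 gave −7.62 in WT and −1.97 in Xbp1-Ire1 KO (adjusted p = 1.25e-07).

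The 50 genes of the IRE1-XBP1 arm and ER chaperones were read in the same fit. In WT 34 were higher in cDC1 and 3 in cDC2. In Xbp1 KO the numbers were 22 and 13, beside 18.4% and 20.8% of all genes, and the median log2 fold change was 0.27. In Xbp1-Ire1 KO they were 35 and 8, beside 20.5% and 22.1%, and the median was 0.96. The interaction passed for 17 members in Xbp1 KO, and all 17 lay further toward cDC1 in WT than in the knockout. This does not require a difference toward cDC1 in WT: 11 of the 17 were among the 32 members called higher in WT cDC1. Over all genes, 224 of the 264 that passed lay further toward cDC1 in WT. In Xbp1-Ire1 KO the interaction passed for 14 members. Of these, 4 lay further toward cDC1 in WT and 10 further toward cDC1 in the knockout. Over all genes these numbers were 180 and 92 of 272. Without the library with acinar transcripts the Xbp1 KO counts were 20 and 12, and 15 members passed the interaction. Rpn1, a subunit of the oligosaccharyltransferase that glycosylates new proteins, gave 1.27 in WT, −0.95 in Xbp1 KO (interaction adjusted p = 6.04e-07, and 6.37e-06 without that library) and 1.29 in Xbp1-Ire1 KO. Erp44, a chaperone of the thioredoxin family and one of the reported IRE1 substrates, gave 0.94, −1.56 and 0.95 in that order (adjusted p = 1.22e-07 and 0.9999). Both genes were called on the cDC2 side in Xbp1 KO alone of the 3 genotypes. Creld2 gave 2.34 in WT, 1.12 in Xbp1 KO (adjusted p = 6.73e-04, and 0.00348 without that library) and 2.16 in Xbp1-Ire1 KO (adjusted p = 0.802). For Hspa5 the subset difference was 1.32, 2.07 and 2.59, and neither interaction passed (adjusted p = 0.364 and 0.0617). Hsp90b1 gave 1.94 in WT and 3.01 in Xbp1-Ire1 KO (adjusted p = 0.0338). Hspa5, Hsp90b1 and Creld2 were called higher in cDC1 in all 3 genotypes.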

How the data were processed

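Bulk RNA-seq of 3 WT cDC1 and 4 WT cDC2 libraries was analysed from tables of raw counts per gene symbol that the authors deposited, 1 table per subset. Per the submitters' processing notes the tools included FastQC 0.11.4, Trimmomatic 0.35, TopHat2 2.1.0, SAMtools 0.1.19 and limma 3.42.2, with the mouse build mm10. The counting program, its annotation, its treatment of strand and whether it used reads that map to more than 1 place are unknown here, as no source used here gives them. The authors' normalized tables were not used, because each subset was normalized separately.

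The subsets were joined on the gene symbol and fitted with edgeR 4.0.16 (R 4.3.3). filterByExpr kept genes (minimum count 10, minimum total 15), libraries were scaled by TMM, and cDC1 was compared with cDC2 by edgeR's quasi-likelihood F test, p-values being adjusted by the method of Benjamini and Hochberg over 11441 genes. An adjusted p under 0.05 made a call. The standard error was derived from F, as the absolute log2 fold change over its square root. A fit of all 19 libraries (12185 genes) gave the contrasts in knockout mice. On simulated data with 200 changed genes among 11273, the test recovered 53% of 2-fold and 90% of 4-fold changes and called 16 unchanged genes. The data held a larger share of called genes, 36.7%, so these rates are not those of the comparison itself. Gene positions come from GENCODE M21 (GRCm38), in which 23336 of 24421 symbols matched, and promoters from RefSeq. Each window ends at the base before the start, on the strand of the gene.

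Replicate numbers were checked for pairing. The deviations of same-numbered libraries from their group means correlated at 0.15, 0.31 and 0.24, the numbers being those of the sample titles. In the sample names only the fl-fl libraries share numbers between the subsets, so the pair at 0.24 is not same-numbered there. Replicate 4 of cDC2 has no cDC1 partner and stands alone in its block. Values with the number as a block are given where they change the call of a named gene or move a list's count by over 1.5 times. For Nr4a1 only the changed call is given. Libraries of different number reached 0.32 (cDC1 replicate 3 with cDC2 replicate 4). Alternatives were DESeq2 1.42.0, limma-voom (limma 3.58.1), other scalings and filters, a fit of all libraries, the library name as a term or as a subset, the block, and leaving out each library. Leaving out Xbp1 KO cDC1 replicate 3 from the recurrence and the interactions, and reading the interactions over the ER list, were chosen after seeing the data.

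The members and lists were chosen with earlier results of these data known. Named genes are the 6 markers with Xbp1 and Ern1, the 15 called genes of largest log2 fold change in each direction whose log2 CPM averages 3 or more and whose groups do not overlap (clone-named genes and receptor segments left out), the 10 of largest CPM difference in each direction, and of each list up to 6 called genes in each direction and the 2 most abundant. Some genes that the rule selects are not reported here. Outside this rule, chosen after their values were seen, are Bloc1s1, Canx, Cd274, Cd3e, Cd80, Clec4a1, Clec4n, Clec7a, Ctsh, Ddit3, Derl3, Dnajc3, Fcgr3, Fcgr4, Gpr183, H2-K1, Ifit1, Ifit3, Ifnar1, Ifnar2, Isg15, Itgax, Ly6c2, Mavs, Notch2, Nr4a1, Oasl2, Pdia4, Psmb8, Rpn1, Sec61a1, Siglech, Slc2a1, Spic, Stat2, Syvn1, Tap1, Tlr9 and Zbtb46. Python 3.11.15 with matplotlib 3.10.9 drew the figures.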

Additional observations from a re-analysis of the deposited data

Results flagged for a closer look

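In the 4 cDC2 libraries, 12 of the 237 named genes had 1 library set apart from the other 3 by a gap above Dixon's critical value for a group of that size. Chance alone sets apart about 1 in 20 groups. Replicate 1 was the highest for Cd36 (36.5 CPM in cDC2 replicate 1 against 10.7 to 13.02 CPM in the other 3), Ifi44 (5.92 CPM in cDC2 replicate 1 against 1.79 to 2.26 CPM in the other 3), Ifitm3 (605 CPM in cDC2 replicate 1 against 390.3 to 419 CPM in the other 3), Mab21l3 (1.64 CPM in cDC2 replicate 1 against 0.239 to 0.283 CPM in the other 3), Ppt1 (297 CPM in cDC2 replicate 1 against 204 to 216 CPM in the other 3) and Xcr1 (18.5 CPM in cDC2 replicate 1 against 6.21 to 6.997 CPM in the other 3). Replicate 2 was the highest for Csf1r (791 CPM in cDC2 replicate 2 against 631 to 638 CPM in the other 3) and Tfeb (239 CPM in cDC2 replicate 2 against 179 to 189 CPM in the other 3), and replicate 4 for Lyz2 (1666 CPM in cDC2 replicate 4 against 1150.3 to 1214 CPM in the other 3). The lowest value stood apart for Fdps (29.7 CPM in cDC2 replicate 4 against 43.9 to 46.6 CPM in the other 3), Psmb9 (189.7 CPM in cDC2 replicate 3 against 251 to 255 CPM in the other 3) and Wdfy4 (878 CPM in cDC2 replicate 4 against 955 to 962 CPM in the other 3). Cd36, Ifi44, Mab21l3, Ppt1 and Xcr1 are genes called higher in cDC1, and their values in cDC2 replicate 1 remain below those of every cDC1 library.

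The difference between subsets changed with genotype for 14 of the 54 genes whose contrasts in the knockout mice were read by name, by edgeR's quasi-likelihood test of the interaction. Over all 12185 genes this interaction passed for 2.17% in Xbp1 KO and 2.23% in Xbp1-Ire1 KO. Some of the 54 were named after their values were seen, so their count is not a rate. Values are the log2 fold change of cDC1 over cDC2 in WT minus that in the knockout. In Xbp1 KO it changed for Creld2 by 1.22 (2.34 in WT and 1.12 in the knockout, adjusted p = 6.73e-04), Erp44 by 2.51 (0.94 in WT and −1.56 in the knockout, adjusted p = 1.22e-07), Igf2r by 3.11 (6.56 in WT and 3.46 in the knockout, adjusted p = 0.00237), Rpn1 by 2.22 (1.27 in WT and −0.95 in the knockout, adjusted p = 6.04e-07) and Sec61a1 by 0.83 (1.03 in WT and 0.20 in the knockout, adjusted p = 0.0349). Without the Xbp1 KO cDC1 library that held acinar transcripts, the adjusted p of Sec61a1 was 0.0759 and that of Erp44 was 7.95e-07. In Xbp1-Ire1 KO it changed for Cd4 by 1.82 (−4.56 in WT and −6.38 in the knockout, adjusted p = 0.0452), Ptger3 by −5.65 (−7.62 in WT and −1.97 in the knockout, adjusted p = 1.25e-07), Ddit3 by −3.84 (−0.46 in WT and 3.38 in the knockout, adjusted p = 9.68e-05), Ern1 by −1.35 (0.02 in WT and 1.37 in the knockout, adjusted p = 0.00487) and Xbp1 by −1.54 (0.85 in WT and 2.39 in the knockout, adjusted p = 0.0130). Among the chaperones it changed there for Hsp90b1 by −1.08 (1.94 in WT and 3.01 in the knockout, adjusted p = 0.0338), Pdia3 by −0.71 (1.70 in WT and 2.41 in the knockout, adjusted p = 0.0255), Pdia4 by −1.01 (1.53 in WT and 2.54 in the knockout, adjusted p = 0.00974) and Pdia6 by −0.76 (1.58 in WT and 2.34 in the knockout, adjusted p = 0.0357).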

How the results depend on the processing

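The counts of called genes stayed within 1.5 times of 2092 in cDC1 and 2103 in cDC2 under every alternative run. They were 2233 and 2425 with DESeq2, 2159 and 2127 with limma-voom, and 2333 and 2430 with the replicate block, and leaving out single libraries gave 1664 to 2213 and 1629 to 2273. Between 76.3% and 99.8% of the calls were kept, and 0 changed direction. The replicate block called B2m, Il1b, Notch2, Nr4a1 and Tapbp, which the fit without it did not, and changed no other call of a named gene. Signs changed in 9 named genes, none of which passed the test with all 7 libraries, and of the changed values Cd83 within fl-fl libraries passed (adjusted p = 0.0109). With the replicate block these were Ccr7 (0.32), Cd83 (0.29), Ern1 (−0.083) and H2-K1 (−0.049). With library totals they were Bloc1s1 (−0.042), Ern1 (−0.16), H2-K1 (−0.15) and Mavs (−0.11), and with limma-voom Ccr7 (0.031). With the library name as a term they were Ccr7 (0.38), Cd83 (0.27), Ern1 (−0.011) and H2-K1 (−0.037). Within fl-fl libraries they were Ccr7 (0.70), Cd3e (−0.14), Cd83 (0.62), Ern1 (−0.073), Ly6c2 (−0.099) and Mavs (−0.059), and within WT-named ones H2-K1 (−0.16) and Siglech (1.17). Without single libraries the changed signs were in Ccr7 (−0.57 to 0.27), Cd83 (−1.38 to 0.0048), Ern1 (−0.094 to 0.13), H2-K1 (−0.12 to 0.21), Ly6c2 (−0.15 to 0.59), Mavs (−0.089 to 0.21) and Siglech (−1.80 to 0.28), each as the range over all libraries left out. Over 4501 values of named genes under alternatives, 4404 kept direction and call, and the cause of the others was not tested. Depth was 11536884 to 13727184 counts, and differences under 2-fold are the ones most likely to be missed. In the simulation 2-fold changes were recovered in 53% of cases and 4-fold ones in 90%. It changed 200 of 11273 genes, whereas 36.7% of genes were called in the data, so these rates do not measure recovery here.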
